A study of Mus musculus with 18 samples.

Results

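The TKO libraries are described here on their own, without a comparison with another genotype. They were chosen by genotype alone, and they are 6 of the 18 samples of the series: 3 of RNA-seq, which counts sequenced reads on genes, and 3 of ATAC-seq, which counts reads from DNA that a transposase could cut, a measure of open chromatin. The study asked how CARM1, an arginine methyltransferase, acts through the transcription factor NFIB in small cell lung cancer (SCLC), and the TKO tumors are its starting genotype, with Carm1 and Nfib intact. TKO mice carry conditional (floxed) alleles of Rb1, of p53 (the gene Trp53) and of another gene of the retinoblastoma family. The labels give that gene as Rbl1, with the strain written Rb1L/L; Rbl1L/L; p53L/L, and the text of the study gives Rbl2 in places and Rbl1 in others, so both are reported. Adenovirus with Cre recombinase was brought into the lungs through the trachea at 8 weeks of age, and tumors of 3 independent animals were collected 28 weeks later. Cre acts in the lung cells that the virus infects, so neighbouring normal cells keep their alleles. The labels call the cells SCLC cells of a genetically engineered mouse model. By the Methods they were sorted for tdTomato, a reporter that Cre switches on, the Results speak of biopsies, and the Methods of ATAC-seq also name cancer cell lines. Libraries are numbered below by the digit in their column header. Tumor 1, 2 or 3 means the libraries with that digit, and the labels do not tie an RNA digit and an ATAC digit to the same animal, though the Results say that both assays used the same biopsies.

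SCLC is a neuroendocrine cancer: many of its tumors store peptide hormones in dense-core granules and carry parts of the machinery with which neurons release vesicles. Loss of RB1 and of its relatives p107 (gene Rbl1) and p130 (gene Rbl2) frees E2F factors to drive entry into the cell cycle, and loss of p53 removes a brake on growth after DNA damage. Start sites of active genes usually lie in open chromatin, whereas distal elements such as enhancers open in a narrower range of cell types.

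Counts on genes came to 17874531, 20915057 and 19090012 in RNA libraries 1, 2 and 3. Counts on peaks, the regions called open in the series as a whole, came to 41880423, 47653979 and 26917178 in ATAC libraries 1, 2 and 3. Levels are given as CPM (counts per 1000000 counts, scaled by the TMM method of edgeR) or, for comparing genes, as TPM (counts per length of exon, scaled to a sum of 1000000). A value of 3 counts or fewer was taken as not detected, which is 0.163, 0.152 and 0.153 CPM in the RNA libraries and 0.0733, 0.0706 and 0.0972 CPM in the ATAC libraries. Such limits hold for counting error alone: the reads carry no molecular identifiers, and copies made by PCR do not count as separate molecules. The 10 genes with the most counts held 4.86, 6.95 and 5.44% of the RNA counts, and mitochondrial genes held 1.7, 2.92 and 3.51%. The 10 fullest peaks held 28.3, 32.6 and 28.3% of the ATAC counts. The Wilson 95% interval of each of these shares reached at most 0.019 percentage points to either side, again for counting error.

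The genes that Cre was meant to delete come first. A count for a whole gene does not resolve deleted exons, so a level here does not tell a deleted allele from an intact one. Rb1 (ENSMUSG00000022105, chromosome 14 from 73183673 to 73325822) encodes the retinoblastoma protein and had 64.1, 38.9 and 52.3 TPM in tumors 1, 2 and 3. Trp53 (ENSMUSG00000059552), the gene of p53, had 11.3, 9.21 and 13.2 TPM, and Rbl2 (ENSMUSG00000031666) had 13.4, 9.18 and 9.32 TPM. These 3 genes stayed within a 2-fold range between tumors, and their start sites were open in every tumor. Accessibility at the start sites, summed over the peaks within 1000 bp of any start of a gene, was 28.4, 26.0 and 18.1 CPM for Rb1, 48.2, 42.7 and 43.0 CPM for Trp53 and 18.5, 20.4 and 23.4 CPM for Rbl2. Rbl1 (ENSMUSG00000027641, chromosome 2 from 157145893 to 157204534) did not stay in such a range. It had 8.98, 0.96 and 48.6 TPM, from 268, 34 and 1531 counts, and its start site had 2.15, 1.34 and 24.5 CPM, so tumor 3 was high and tumor 2 low in both assays. In sum the 3 other peaks over the gene were lowest in tumor 3, at 13.6, 5.22 and 1.62 CPM. Of all 4 peaks over Rbl1, 2 were highest and 1 was lowest in tumor 3. For Rb1 the sum of the 7 peaks away from the start site was also lowest in tumor 3, at 27.8, 32.7 and 6.19 CPM. Of all 8 peaks over Rb1, 6 were lowest and 1 was highest in tumor 3. The promoter of Rbl1 is shown because its accessibility separates the tumors. The sequence is that of RefSeq for GRCm38.p6, chr2:157204485-157204784 on the minus strand, 250 bases before to 50 after the start, and capitals mark its 29 CG dinucleotides.
Rbl1 promoter: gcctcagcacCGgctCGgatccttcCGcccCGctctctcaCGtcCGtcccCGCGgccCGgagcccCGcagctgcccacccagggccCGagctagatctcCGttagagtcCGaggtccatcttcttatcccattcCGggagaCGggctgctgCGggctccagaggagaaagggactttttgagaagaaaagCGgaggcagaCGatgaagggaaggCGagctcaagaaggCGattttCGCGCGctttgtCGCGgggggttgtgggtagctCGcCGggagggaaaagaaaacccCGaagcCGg

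The label of SCLC was checked against regulators that name SCLC subtypes and against 14 neuroendocrine markers. Neurod1, a factor of a neuroendocrine subtype, had 2.72, 14.0 and 4.95 TPM and was highest in tumor 2, as was its start site (4.57, 14.3 and 4.24 CPM). Yap1, a co-activator of a non-neuroendocrine subtype, had 3.17, 1.54 and 1.32 TPM. Pou2f3, the tuft-cell factor, stayed under 1 TPM in all 3 tumors, with 1, 4 and 15 counts. The regulators of the non-neuroendocrine subtypes were thus low in every tumor. Of the neuroendocrine markers, 13 of 14 had at least 1 TPM in each tumor (called detected below), and all 14 had an open start site (at least 1 CPM in each ATAC library). Over all 21519 coding genes 11547 were detected and 64.6% had an open start site. Insm1, a zinc finger factor of endocrine cells, had 345.9, 407 and 352 TPM, a mean of 368 ± 34 TPM (SD, n = 3), with 70.5, 77.2 and 73.1 CPM at its start site. Uchl1, a ubiquitin hydrolase of neurons, had 1059, 917 and 1119 TPM, and Scg3, a granule protein, had 259, 237 and 279.9 TPM. These markers stood at like levels in the 3 tumors, but others did not. Scg2, a granin from which peptides are cut, had 56.6, 211 and 3149.8 TPM and was highest in tumor 3. Pcsk1, the convertase that cuts prohormones, had 19.0, 0.544 and 23.6 TPM and was the marker below 1 TPM in tumor 2. Calca, which encodes calcitonin and CGRP, had 54.5, 26.1 and 13.1 TPM. Over the list, 9 of 14 genes were highest in tumor 3, as were 40.9% of all 12759 coding genes with a mean of at least 1 CPM.

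**Figure D1:**
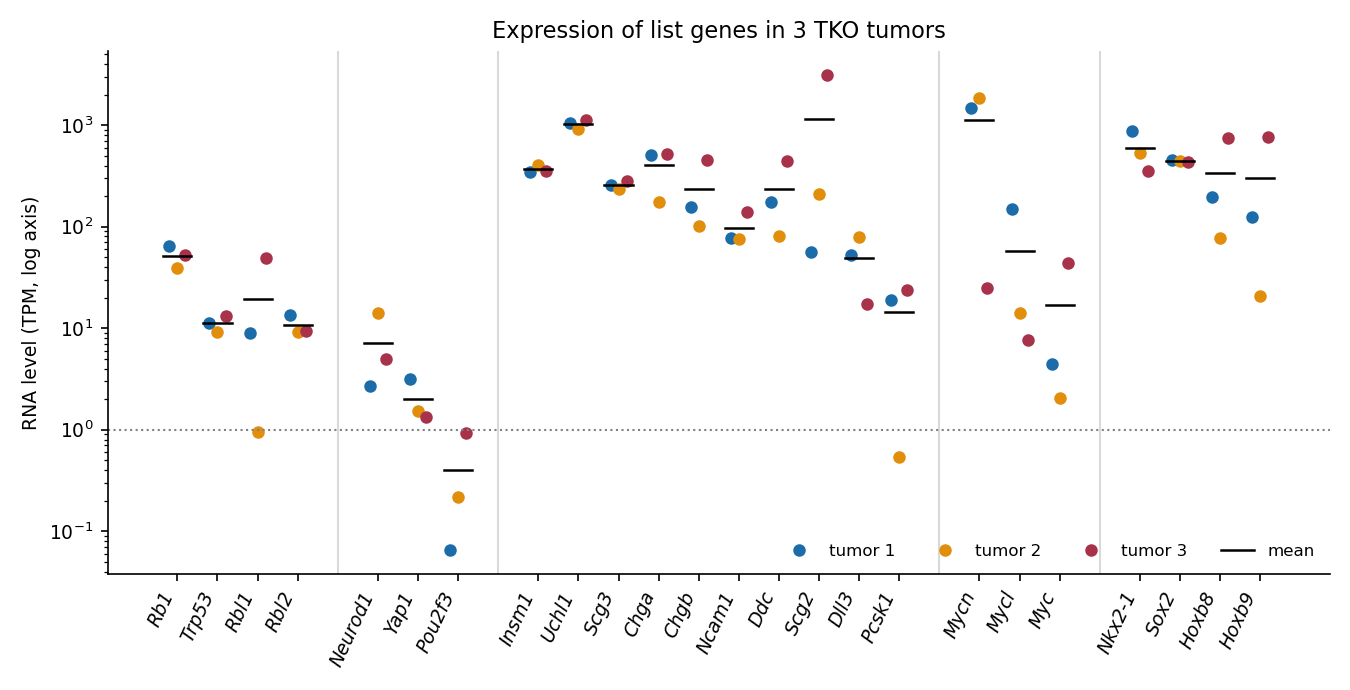
RNA level (TPM, log axis) of Cre target genes, SCLC subtype factors, neuroendocrine markers, MYC family genes and regional factors in the 3 TKO tumors, with the mean as a bar. Insm1 and Uchl1 lie close together across tumors, whereas Mycn falls from 1832 TPM in tumor 2 to 24.8 TPM in tumor 3 and Rbl1 lies between 0.96 and 48.6 TPM; the dotted line marks 1 TPM.

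Basic helix-loop-helix factors bind E-boxes such as CAGCTG and CAGATG, and promoters were searched for these letters on both strands. Of 32851 RefSeq promoters of 300 bases, 30.6% hold either of them, so a match is common and is given as a description. Chga, which encodes chromogranin A, the main granin of the granules, had 509, 176 and 521 TPM and 43.9, 33.9 and 25.9 CPM at its start site. Hes6, a HES factor that is active in neural precursors, had 181, 282 and 192 TPM and 88.4, 105.7 and 69.9 CPM at its start site. Of the 14 neuroendocrine markers 11 have a promoter in the table, and 5 of these hold CAGCTG (Calca, Chga, Chgb, Dll3 and Resp18) and 0 hold CAGATG. Over the 32851 promoters the shares were 16.3% for CAGCTG and 17.2% for CAGATG. Hes6 is in the list of Notch pathway genes. Chga has 2 matches to CAGCTG and Hes6 has 1, and they are shown as open promoters of expressed genes that hold these letters. The sequences are from RefSeq for GRCm38.p6, chr12:102554691-102554990 on the plus strand and chr1:91413989-91414288 on the minus strand, with matches in capitals.
Chga promoter: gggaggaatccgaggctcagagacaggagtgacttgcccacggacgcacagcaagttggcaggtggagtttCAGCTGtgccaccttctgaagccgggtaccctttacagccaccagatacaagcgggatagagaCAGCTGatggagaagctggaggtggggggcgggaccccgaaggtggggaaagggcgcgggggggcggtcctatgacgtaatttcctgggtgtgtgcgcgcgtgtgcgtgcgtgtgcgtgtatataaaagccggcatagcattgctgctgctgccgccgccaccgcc
Hes6 promoter: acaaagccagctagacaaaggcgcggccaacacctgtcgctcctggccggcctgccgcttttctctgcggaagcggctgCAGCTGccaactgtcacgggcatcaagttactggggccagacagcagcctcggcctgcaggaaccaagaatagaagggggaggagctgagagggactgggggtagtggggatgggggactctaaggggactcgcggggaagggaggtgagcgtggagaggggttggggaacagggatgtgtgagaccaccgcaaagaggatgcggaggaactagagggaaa

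Other cell types of the lung were looked for with lists of markers. In bulk samples fewer cells of a type and less RNA per cell cannot be told apart. Alveolar markers summed to 144.8, 65.1 and 77.2 TPM, with 4 of 12 detected. Abca3, a lipid transporter of surfactant granules, had the highest mean of the list, with 37.3, 33.6 and 41.4 TPM, while Sftpc, the surfactant protein that defines alveolar type II cells, had 35.9, 2.29 and 0.184 TPM. Sftpd and Slc34a2 were at 0 in all 3 tumors. Airway markers summed to 18.3, 19.6 and 333 TPM, with 3 of 14 detected. Most of the sum in tumor 3 was Scgb1a1, the secretoglobin of club cells, with 8, 0 and 658 counts (263 TPM in tumor 3) and no peak at its start site. Krt14, Krt15, Cyp2f2, Scgb3a2 and Ccdc153 were at 0 in every library. Leukocyte markers summed to 155, 14.1 and 12 TPM, with 3 of 15 detected. Lyz2, the lysozyme of macrophages, had the highest mean, with 125.5, 5.02 and 1.59 TPM, but in tumors 2 and 3 Cd68 was above it, at 7.67 and 8.33 TPM. The T-cell markers Cd3e and Cd3d and the B-cell marker Ms4a1, and also S100a9 and Nkg7, were at 0. Another B-cell marker, Cd79a, was detected, with 11, 12 and 12 counts (1.52, 1.39 and 1.57 TPM), and Ptprc, the antigen CD45 of all leukocytes, had 31, 0 and 3 counts. Endothelial markers summed to 6.57, 4.04 and 8.74 TPM, with 0 of 7 detected and Emcn and Cldn5 at 0. Kdr had the highest mean through tumor 3 (0.889, 0.112 and 7.72 TPM). Other members differed: Vwf was highest in tumor 1 (378, 24 and 11 counts) and Tek in tumor 2 (13, 97 and 7 counts). Fibroblast markers summed to 22.2, 22.1 and 43.4 TPM, with 3 of 8 detected and the highest mean for Dcn, a matrix proteoglycan (1.62, 3.16 and 28.3 TPM). Of the 7 with a mean of at least 1 CPM, 4 were highest in tumor 2 (33.7% of all genes) and 2 in tumor 3 (40.9%). The collagen genes Col1a1 and Col1a2, highest in tumor 2, had 6, 88 and 8 counts and 0, 115 and 8 counts. Hepatocyte markers summed to 18.5, 11.4 and 87.0 TPM, nearly all of it Ttr, a hormone carrier, and erythroid markers stayed at or under 3.09 TPM. The leukocyte and alveolar sums were thus highest in tumor 1 and the airway sum in tumor 3, and the part of these cells in the results on spread was not tested.

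Of 21519 protein-coding genes in the table, 11547 were detected in all 3 tumors, 7843 were under 1 TPM in all 3, and 2129 lay in between. At 3 counts or fewer in every library were 6181 genes, and 1742 reached a mean of 100 TPM. Mitochondrial transcripts were the most abundant per length, led by mt-Co1, a subunit of cytochrome c oxidase, with 15640.5, 18419 and 27570.2 TPM. Among nuclear genes the first by mean was Ddx1 (ENSMUSG00000037149), an RNA helicase gene next to Mycn, with 10519, 18005 and 258 TPM. Its rank rests on tumors 1 and 2. The next were the elongation factor gene Eef1a1 (8850.4, 9749.7 and 4659.9 TPM), Ptma, which encodes the chromatin protein prothymosin alpha (6600.6, 7575 and 3123 TPM), Rplp1, of the ribosomal stalk (4247, 5433.5 and 2832 TPM), and the elongation factor gene Eef2 (3703, 4055 and 2857 TPM). Ribosomal protein genes and elongation factor genes made up 10 of the first 20. Others of the first 20 serve the cytoskeleton: the tubulin genes Tubb5 (3589.6, 3108 and 3220.1 TPM) and Tuba1a (2695, 1791 and 3340.0 TPM) and Stmn1, which encodes the tubulin-binding stathmin (2434, 1813.5 and 2147 TPM). Igfbp5, which binds insulin-like growth factors outside the cell, reached the list through tumor 3, with 157, 1529 and 5231 TPM and 31, 39.9 and 32.7 CPM at its start site. Its RNA spread widely between the tumors while its start site stayed near the same accessibility in each.

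Transcription factors of the lung and of neurons differed widely in level. Nkx2-1, the lineage factor of lung epithelium, had 884 TPM in tumor 1, 526 TPM in tumor 2 and 357 TPM in tumor 3, with 108.5, 118 and 76.8 CPM at its start site. Sox2, a factor of progenitor cells, had 458, 446 and 434 TPM, a mean of 445.9 ± 12.1 TPM (SD, n = 3). Foxa1, a pioneer factor of endoderm, had 172.5, 215 and 123 TPM, while its relative Foxa2 had 24.5, 71.8 and 5.14 TPM. These 4 factors are part of a list of 33 regulators of neuronal fate, so its counts include factors of lung and endoderm. Of the 33, 18 were detected in all tumors and 9 were under 1 TPM in all, among the latter Neurod2 and Sox3 with 0 counts. Start sites were open at 24 of 33 genes. Over all genes open start sites also outnumbered detected ones, at 13911 against 11547 of 21519. Neurod2, a neuronal bHLH factor, had 7.3, 4.96 and 6.19 CPM at its start site without a read of RNA, and Atoh1, another, had 11.7, 15.5 and 7.1 CPM with 0, 0 and 1 counts. Of the genes that the other genotypes of the series alter, Nfib had 117, 150 and 164 TPM. Carm1 had 84.1, 82.3 and 39.4 TPM and was lowest in tumor 3. Among the relatives of Nfib, Nfix had 150.5, 187 and 277 TPM and Nfic had 62.1, 82.3 and 131 TPM. Nfix and Nfic were highest in tumor 3 in CPM as well, whereas Nfib was highest in tumor 2 by that scale, at 475.5, 670.9 and 656.2 CPM. Nfia had 36.4, 27.1 and 17.2 TPM and was lowest in tumor 3.

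The Hox genes, which set position along the body axis, divided by cluster. In the Hoxb cluster on chromosome 11, 8 of 10 genes were detected in all tumors, and in the Hoxa, Hoxc and Hoxd clusters 0 of 11, 9 and 9 genes were. Hoxb8 had 195.9, 77.0 and 743 TPM and Hoxb9 had 123, 20.7 and 761 TPM, both highest in tumor 3 and lowest in tumor 2. Their start sites had 67.4, 48.8 and 77.2 CPM and 16.6, 8.09 and 39.5 CPM in the same order of tumors. Over the 8 expressed genes the median log2 deviation from the mean of the 3 tumors (positive where a tumor lies above that mean) was -0.20, -0.81 and 1.02 in RNA and 0.08, -0.34 and 0.18 at start sites. Hoxa genes were nearly silent, at a mean of 0.361 TPM or less, and yet 10 of 11 had an open start site. The median accessibility of those start sites was 2.49 CPM, against 32.1 CPM in the Hoxb cluster, 0.497 CPM in the Hoxc cluster and 0 in the Hoxd cluster.

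The MYC family, whose factors drive growth and biosynthesis, separated the tumors. Mycn (ENSMUSG00000037169, chromosome 12 from 12936093 to 12941914) had 1487, 1832 and 24.8 TPM. Mycl had 151, 14.1 and 7.64 TPM and was highest in tumor 1, and Myc had 4.43, 2.06 and 44.1 TPM and was highest in tumor 3. Start sites followed the same order for Mycn (9158, 11981 and 92.9 CPM, the sum of a peak of 105000 bp that covers the gene and its surroundings), for Mycl (107, 31.1 and 26.6 CPM) and for Myc (20.7, 9.81 and 65.4 CPM). The partner Max had 87.5, 102 and 76.0 TPM and the antagonist Mnt had 58.4, 44.6 and 43.7 TPM, a far smaller spread. Genes within 2 Mb of Mycn were looked at after their values were seen. Nbas, a gene of vesicle transport, had 687, 1358 and 26.5 TPM, and Fam49a, a regulator of the actin cytoskeleton, had 879.6, 550.1 and 21.9 TPM. With Ddx1, these genes were high in tumors 1 and 2 and low in tumor 3. Smc6, of a chromosome maintenance complex, did not follow, at 74.0, 56.3 and 76.3 TPM, nor did Gen1, a DNA resolvase, at 14.4, 13.3 and 10.5 TPM. Vsnl1, a neuronal calcium sensor, parted accessibility from expression: its start site had 240.6, 194 and 14.5 CPM, and its RNA had 1, 6 and 200 counts. Copy number was not measured, and its part in these values was not tested. The Methods tell of a filter on called peaks against regions of altered copy number, and the deposited table holds the peaks around Mycn described below.

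Of the 111664 peaks, 46332 had at least 1 CPM in all 3 tumors, 38666 in none and 26666 in some of them. Start-site peaks, those within 1000 bp of a start of any gene, were 18.7% of all peaks and 34.7% of the peaks present in all tumors. Those in gene bodies went from 48.8 to 39.7% and those between genes from 32.6 to 25.6%. Of the 10 fullest peaks, 7 were multi-copy, that is over 10% of the 31-base words in their middle 200 bases also occur elsewhere in the genome, and 3 lay around Mycn. The fullest peak, on chromosome 9 from 2999941 to 3038383, had 90854, 112960.3 and 77691 CPM, and the peak on chromosome 2 from 98666183 to 98667389, the first in reads per length, had 57079, 70967 and 55984 CPM. In all, 8294 peaks were multi-copy, and they held 37.9, 41.5 and 42.0% of the ATAC counts. Some match the mitochondrial genome, so their reads may come from mitochondria. Among the 10 fullest, the peak on chromosome 1 from 24611490 to 24616227 had 100% of its words there. The peak on chromosome 2 from 22588457 to 22590200 had 78.2%. Peaks with at least 50% of such words held 1.49, 2.78 and 3.35% of the ATAC counts. Around Mycn, a peak of 159596 bp on chromosome 12 from 12656593 to 12816188 had 20208.5 CPM in tumor 1, 22027 CPM in tumor 2 and 174.8 CPM in tumor 3. The peak over Mycn itself spans 105000 bp, from 12928648 to 13033647.

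A ranking of single-copy peaks of at least 500 bp was added after the values were seen. The label single-copy rests on the assembled genome, so copies missing from the assembly are not seen. Whether the first peak named here has such copies was not tested. At start sites the ranking was led by a peak over Gm26917, a lincRNA gene, on chromosome 17 from 39842933 to 39848891, with 3436, 3532 and 3487 CPM. The ranking also held the histone genes of chromosome 13 near Hist1h2ab (234.7, 245.7 and 159.7 CPM). In gene bodies, beside a peak in Fam49a, it held introns of Fgfr2, a receptor of fibroblast growth factors (81.4, 91.8 and 57.6 CPM), and of Gse1, a gene of a chromatin corepressor complex (76.1, 101.8 and 63.3 CPM). Between genes it held a peak on chromosome 11 from 109011591 to 109012178, at 183.8, 191 and 187 CPM, whose nearest coding gene is Axin2. The middle of the Gse1 peak (chromosome 8 from 120415585 to 120417672) is shown as a distal locus that was open in every tumor. It reads, for GRCm38.p6 and chr8:120416529-120416728 on the plus strand, as follows, with a CAGCTG in capitals.
Gse1 intron peak: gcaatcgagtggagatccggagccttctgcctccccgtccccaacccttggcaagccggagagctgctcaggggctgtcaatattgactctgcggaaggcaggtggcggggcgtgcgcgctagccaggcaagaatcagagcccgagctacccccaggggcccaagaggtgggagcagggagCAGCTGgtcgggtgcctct

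Letters that known factors bind were counted, on both strands, in the middle 200 bases of distal peaks, those not at start sites. CAGCTG, the E-box above, was in 16.9% of all 90819 distal peaks, in 19.9% of the 30252 present in all 3 tumors and in 14.6% of the 1000 with the most reads per length. Multi-copy peaks are among these, and in a ranking of single-copy peaks alone, added after the values were seen, it was 21.8% of 1000. With the single-copy distal peaks present in all tumors divided into 5 equal groups by reads per length, its share went from 17.3% in the least open to 23.1% in the most open group. TGCCAA, the recognition core of NFI factors, went from 13.5 to 22.1% over the same groups, with 16.5% in all distal peaks. TGANTCA, the site of AP-1 factors, ran the other way, from 14.4 to 7.62%, with 20.1% in all distal peaks and 9.11% in those present in all tumors. Other letters rose from the least to the most open group too. TAATTA, a core of homeobox factors, went from 2.78 to 6.16%. The letters CACTTGA went from 2.93 to 6.09%. The letters ACAATG, bound by SOX factors, went from 9.6 to 13.1%. The other E-box, CAGATG, moved less, from 17.8 to 19.5%. The letters CCGGAAGT fell, from 0.346 to 0.2%. The GC content was 50.9% in the least and 51.9% in the most open group. These shares describe letters, and no binding was measured.

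Accessibility at start sites and expression were then set side by side, gene by gene. Across all 21519 protein-coding genes the means of the 3 tumors had a Spearman rank correlation of 0.783. Genes are not independent replicates, and the correlation is a description. Library by library, RNA and ATAC libraries of the same digit gave 0.78, 0.785 and 0.781, and pairs with different digits gave 0.763 to 0.778. Most of the relation lay between closed and open start sites: among the 13911 genes with an open start site it was 0.443, and among the 11547 detected genes 0.281. An open start site was present in 97.1% of detected genes and in 16.8% of the 7843 genes under 1 TPM. Read from the other side, 80.6% of genes with an open start site were detected, against 4.38% of the 7608 others. The share of open start sites rose from 9.45% of genes under 0.1 TPM over 44.0% at 0.1 to 1 TPM to 99.3% at 100 TPM or more. Median accessibility rose less at the upper end, with 20.7 CPM at 5 to 20 TPM, 26.5 CPM at 20 to 100 TPM and 30.3 CPM above.

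**Figure D2:**
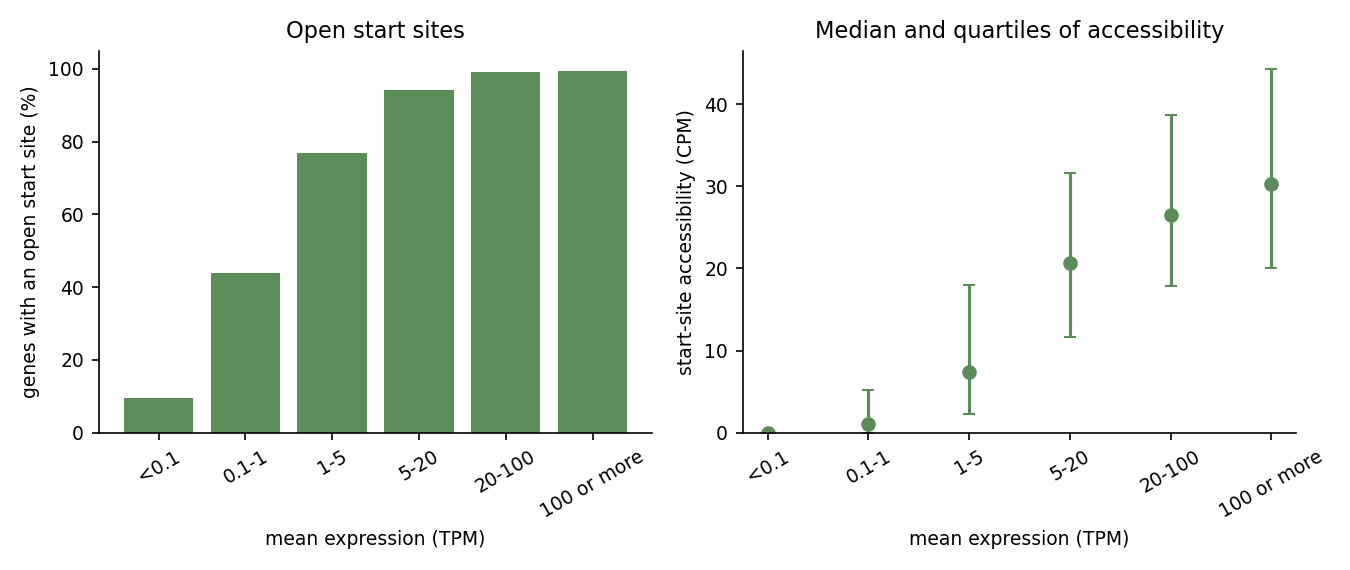
Share of protein-coding genes with an open start site (left, percent) and accessibility at start sites (right, CPM, median with quartiles) for genes grouped by their mean expression in the 3 TKO tumors (TPM). The share rises from 9.45 to 99.3%, and the median of the highest group is 30.3 CPM against 20.7 CPM at 5 to 20 TPM.

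Base composition went along with both. The 300 bases around the 5′ most start held a median of 21 CG dinucleotides in genes that were open and detected, and of 2 in genes that were not open and had 3 counts or fewer. Across genes the CG count had a rank correlation of 0.704 with accessibility and of 0.665 with expression. Of the 637 genes that were open at 3 counts or fewer, 51.6% had at least 10 CG dinucleotides, against 15.0% of the 333 genes that were detected without an open start site, 85.9% of the 11214 open and detected genes and 56.1% of all genes.

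Genes off the main relation were of 2 kinds. The first had RNA and no peak at a start site, and the mitochondrial genes, led by mt-Co1, filled the upper ranks of this group. Among nuclear genes, a ranking added after the values were seen, Eno1b, of the enolase family, had 419, 237.5 and 1.93 TPM, Scgb1a1, given above, was in the list, and Rps12-ps3, whose name is that of a pseudogene, had 56.5, 197 and 28.9 TPM. Ide, the insulin-degrading protease, had 74.5, 76.3 and 47.2 TPM. Reads that map to several places were 3.49, 4.32 and 6.31% of RNA reads and are not counted, and their part in this group was not tested. The second kind had an open start site and 3 counts or fewer. Repeat-like genes of chromosome 9 such as Gm10720 led it, all under the peak named above. Among single-copy peaks, again a ranking added later, histone genes stood out: Hist1h2bf, of histone H2B, had 610.4, 619 and 398.5 CPM at its start site with 2, 3 and 0 counts. Pagr1a and Pagr1b shared their peaks, at 150.4, 152.6 and 151.3 CPM, with at most 1 count in a library. Few counts do not show that these genes make no RNA. Reads that map to several places are not counted for them either, and RNA that the library preparation leaves out gives no reads. The part of both in this group was not tested.

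The spread between the 3 tumors was taken as the SD of log2 CPM over features with a mean of at least 1 CPM. Its median was 0.40 for 13839 genes, 0.27 for 17628 start-site peaks and 0.69 for 47610 distal peaks. An SD above 1, on the log2 scale, was found in 17.1% of genes, 9.09% of start-site peaks and 32% of distal peaks. Tumor 3 stood apart in both assays. Without it the medians were 0.22 for genes, 0.14 for start-site peaks and 0.33 for distal peaks. Pearson's r of log2 CPM across genes was 0.936 between tumors 1 and 2, 0.814 between 1 and 3 and 0.817 between 2 and 3. For start-site peaks r was 0.959, 0.858 and 0.849, and for distal peaks 0.84, 0.401 and 0.419, in the same order of pairs. Features are not independent replicates here either, and ATAC library 3 was also the shallowest, a part that was not tested.

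**Figure D3:**
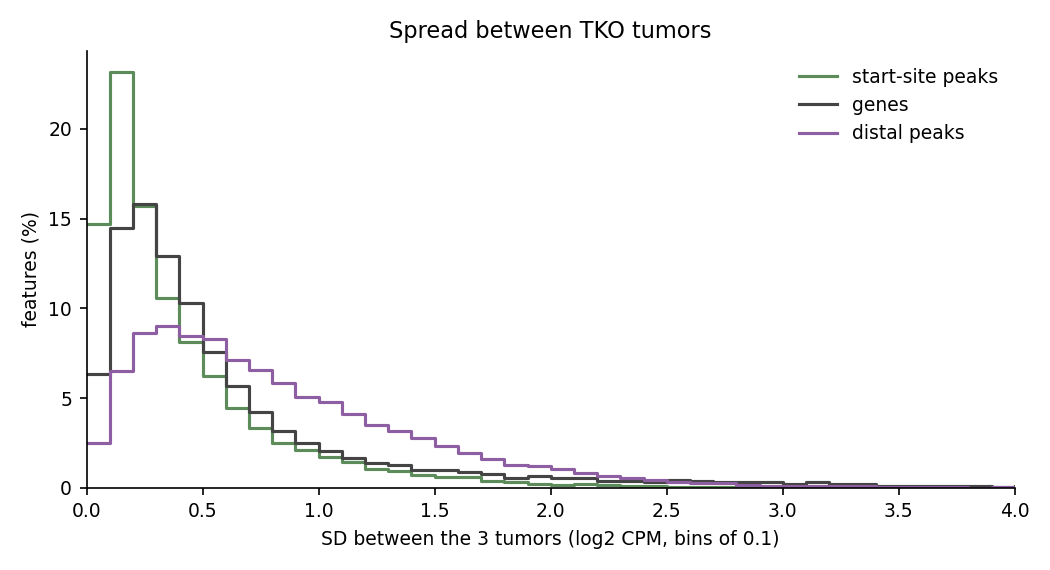
Histogram of the SD of log2 CPM between the 3 TKO tumors (bins of 0.1) as a percentage of 17628 start-site peaks, 13839 genes and 47610 distal peaks. Start-site peaks gather at low SD (median 0.27) and distal peaks reach further to the right (median 0.69).

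The steadiest genes among those with at least 50 CPM were Idh3b, Srf, Gabpb2, Hccs and Pomp. Pomp, which helps to assemble the proteasome, had 47.2, 43.1 and 47.6 TPM and 13.5, 14.9 and 16.3 CPM at its start site. Hccs, which attaches heme to cytochrome c, had 44.9, 41.1 and 45.7 TPM and 21.0, 21.3 and 21.0 CPM. Gabpb2, a subunit of the ETS factor GABP, had 27.8, 25.1 and 27.9 TPM. Of these 5 promoters 2, those of Pomp and Hccs, hold CCGGAAGT, the letters of an ETS site, and those of Idh3b, Srf and Gabpb2 do not; 3.89% of the 32851 promoters hold it. The former are shown as promoters of steady genes, chosen for the match, in RefSeq for GRCm38.p6, chr5:147860378-147860677 on the plus strand and chrX:169320323-169320622 on the minus strand, with the match on either strand in capitals.
Pomp promoter: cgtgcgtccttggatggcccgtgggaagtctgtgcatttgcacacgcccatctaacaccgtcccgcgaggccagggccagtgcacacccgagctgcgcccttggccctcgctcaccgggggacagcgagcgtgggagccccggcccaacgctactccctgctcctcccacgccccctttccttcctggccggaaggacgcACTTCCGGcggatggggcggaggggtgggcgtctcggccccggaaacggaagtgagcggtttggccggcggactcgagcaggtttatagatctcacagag
Hccs promoter: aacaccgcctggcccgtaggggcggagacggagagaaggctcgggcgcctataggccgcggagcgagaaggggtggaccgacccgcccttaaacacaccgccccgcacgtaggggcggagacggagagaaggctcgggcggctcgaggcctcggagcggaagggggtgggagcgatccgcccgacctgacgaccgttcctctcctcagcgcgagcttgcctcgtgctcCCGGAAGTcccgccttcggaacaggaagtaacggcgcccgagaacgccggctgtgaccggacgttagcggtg

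A stricter count asked where a tumor lay at least 4-fold above both others. Among 12042 genes with at least 5 CPM in the top tumor, 122 (1.01%) were so in tumor 1, 66 (0.548%) in tumor 2 and 470 (3.9%) in tumor 3. Among 46144 peaks with at least 3 CPM in the top tumor, 202 (0.438%) were so in tumor 1, 273 (0.592%) in tumor 2 and 2451 (5.31%) in tumor 3. Scaled by total counts alone they were 131, 52 and 487 genes and 228, 181 and 3446 peaks, so for peaks the order of tumors 1 and 2 depends on the scaling. Lying at least 4-fold under both others were 43, 98 and 251 genes and 139, 92 and 3316 peaks. Start-site peaks were 34.0% of the peaks tested and 5.45, 3.66 and 11.1% of those 4-fold above in tumors 1, 2 and 3. Among those 4-fold under they were 7.19, 31.5 and 8.5%. Of the 433 coding genes above in tumor 3, 322 (74.4%) had their most accessible start site in the same tumor and 175 (40.4%) by at least 2-fold over both others. Of all 11596 coding genes tested the shares were 37.5 and 2.73%. For tumor 1 it was 75 (62.5%) and 23 (19.2%) of 120 genes, against 26.8 and 0.483% of those tested, and for tumor 2 it was 37 (57.8%) and 7 (10.9%) of 64, against 33.9 and 0.216%. Genes without a read at the start site count as not highest.

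The genes furthest above the other two tumors are given for each tumor. In tumor 1 they were Mmp12, an elastase of macrophages (33.7, 0.608 and 0.0789 TPM), Lyz2, given above, Ctss, a lysosomal protease (36.1, 0.499 and 0.28 TPM), Thbs1, a matrix protein (94.4, 3.48 and 2.07 TPM), Fermt1, of integrin adhesions, and Elfn1, of synapses. Lyz2 and Ctss had no peak at a start site, and at Mmp12 the start site was under 1 CPM in every tumor. In tumor 2 they included Pnoc, the precursor of nociceptin (0.465, 436 and 3.0 TPM), Vtn, which encodes vitronectin (3.46, 395.9 and 6.38 TPM), and Tacr1, the receptor of substance P (0.835, 16.8 and 0.528 TPM). The start site of Vtn had 47.6, 47.6 and 42.9 CPM and did not follow its RNA, while that of Tacr1 had 34.7, 79.3 and 12.1 CPM and did. In tumor 3 they were Mybpc1, a muscle protein (0, 0 and 2220 counts), Unc5d, a netrin receptor (1, 0 and 1944 counts), Ptprd, a receptor phosphatase of synapses (1, 1 and 1773 counts), Sectm1a, Myot and Prkg1. Unc5d had 2.15, 0.682 and 29.3 CPM at its start site and Ptprd had 2.93, 0.847 and 10.9 CPM, both highest in tumor 3, whereas Mybpc1 had no peak there.

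Single-copy distal peaks far above the other two tumors, at least 100 kb apart, were ranked after the values were seen. For each tumor 1 that holds the letters marked below is shown, which was not in every case the first of the ranking. An intron peak of Ass1, an enzyme gene of arginine synthesis, on chromosome 2 from 31519950 to 31520654 had 11.1, 1.15 and 0.259 CPM. An intron peak of Pid1, which modulates insulin signalling, on chromosome 1 from 84131687 to 84132718 had 1.68, 20.5 and 1.46 CPM. An intron peak of Vsnl1 on chromosome 12 from 11365036 to 11365598 had 4, 6 and 401 counts, or 13.0 CPM in tumor 3. Their middle 200 bases, for GRCm38.p6 on the plus strand, are chr2:31520203-31520402, chr1:84132103-84132302 and chr12:11365218-11365417. Capitals mark CAGCTG or CAGATG in the first and second (CATCTG is the latter on the other strand) and TGCCAA in the third. The third also holds a TAATTA, which is not marked. Of the 30474 distal peaks with at least 3 CPM in the top tumor, 20.2% hold CAGCTG, 19.2% CAGATG and 19.6% TGCCAA. Of the distal peaks 4-fold above in tumors 1, 2 and 3, shares of 17.8, 20.9 and 25.2% hold TGCCAA.
Ass1 intron peak, tumor 1: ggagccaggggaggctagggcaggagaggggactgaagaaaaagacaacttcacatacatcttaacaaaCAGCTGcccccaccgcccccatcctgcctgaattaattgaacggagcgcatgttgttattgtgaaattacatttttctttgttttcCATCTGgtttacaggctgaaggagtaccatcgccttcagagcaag
Pid1 intron peak, tumor 2: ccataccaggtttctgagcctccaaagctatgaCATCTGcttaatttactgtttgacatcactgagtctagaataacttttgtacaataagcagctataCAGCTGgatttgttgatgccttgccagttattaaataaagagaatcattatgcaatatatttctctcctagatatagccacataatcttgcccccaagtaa
Vsnl1 intron peak, tumor 3: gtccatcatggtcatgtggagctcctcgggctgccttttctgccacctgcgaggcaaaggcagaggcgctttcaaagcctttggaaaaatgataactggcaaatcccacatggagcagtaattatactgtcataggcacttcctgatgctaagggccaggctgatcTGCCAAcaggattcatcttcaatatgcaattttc

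Other letters also differed between these sets of peaks. The sets are the 191, 263 and 2178 distal peaks 4-fold above in tumors 1, 2 and 3 and the 3034 that lay 4-fold under in tumor 3, beside the 30474 distal peaks tested. TGANTCA was in 13.1, 7.22 and 18% of those above and in 5.8% of those under, against 9.42% of those tested and 20.1% of all distal peaks. TAATTA, a core of homeobox factors, was in 10.5, 7.22 and 4.96% of those above and in 9.99% of those under, against 5.69% of those tested. ACAATG, bound by SOX factors, was in 12, 24.3 and 12.2% of those above and in 17.3% of those under, against 12.3%. CAGCTG varied less, at 20.4, 23.2 and 18.5% of those above and 19.7% of those under, against 20.2%.

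Lists of genes with a shared role were described by their median log2 deviation of each tumor from the mean of the 3 tumors, in RNA and at start sites, beside all 12269 protein-coding genes with both values, whose medians lay between -0.01 and 0.02. Cytosolic ribosomal protein genes, of the small and large subunits, had RNA medians of 0.20, 0.64 and -0.89, with 78 of 79 genes lowest in tumor 3, against 40.6% of all genes, and 78 highest in tumor 2, against 33.7%. At their start sites the medians were -0.07, 0.00 and 0.05. Mitosis genes, of the spindle and its checkpoint, had RNA medians of 0.20, 0.28 and -0.51 and 17 of 18 genes were lowest in tumor 3. Top2a, a topoisomerase that untangles chromosomes, had 605.1, 492 and 314.7 TPM, and Ccnb2, a mitotic cyclin, was the exception with 44.2, 35.7 and 92.0 TPM. DNA replication genes, which E2F factors control, had RNA medians of 0.18, 0.24 and -0.39, and 25 of 28 genes were lowest in tumor 3. Housekeeping genes, some of them of the cytoskeleton, glycolysis and translation, had RNA medians of 0.19, 0.24 and -0.27. Of these 8 genes, 7 were lowest in tumor 3, so the direction was not particular to the lists above. Actb, of actin, was the exception with 1380.8, 1389.8 and 2231 TPM, and Rplp0 is also in the list of ribosomal protein genes. Start sites moved little in these lists, with medians of -0.04 for mitosis and -0.13 for DNA replication genes in tumor 3. Scaling by total counts or by DESeq2 in place of TMM left the medians of all genes between -0.07 and 0.04 and changed none of these directions.

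By their medians, granule and synaptic genes stood higher in the RNA of tumor 3. Dense-core granule genes had RNA medians of -0.04, -0.50 and 0.45, with 10 of 15 genes highest in tumor 3 (40.9% of all genes), and start-site medians of 0.10, 0.08 and -0.11. Synaptic vesicle genes had RNA medians of -0.15, -0.20 and 0.55 and start-site medians of 0.02, 0.03 and 0.01. Of 21 such genes, 13 were highest in tumor 3 (40.9% of all genes) and 5 were lowest there (40.6%), among them Sv2c (4.28, 15.7 and 3.26 TPM). Snap25, of the fusion complex of vesicles, had 64.0, 77.6 and 303.6 TPM with 19.0, 16.9 and 24.8 CPM at its start site. Syn2, a synapsin that tethers vesicles, had 3.34, 0.265 and 288 TPM with 7.42, 2.71 and 17.8 CPM. Of the neuropeptide precursors, 7 of 20 had a mean of at least 1 CPM, with an RNA median of -1.93 in tumor 3, where 4 of the 7 were lowest (40.6% of all genes). Over the 5 that also have a start-site value, the medians in tumor 3 were -1.06 in RNA and -0.06 at start sites. Single genes differed: Gal, of galanin, had 1, 1 and 208 counts, Sst, of somatostatin, had 0, 158 and 0 counts, and Grp, of gastrin-releasing peptide, had 37.1, 17.3 and 2.84 TPM. Each of these was thus highest in a different tumor. Active Notch signalling restrains the neuroendocrine state, but the list of Notch pathway genes also holds Dll3, an inhibitor that is among the neuroendocrine markers. A median of the list is thus not a measure of Notch activity. Notch pathway genes had RNA medians of -0.12, 0.41 and -0.20 over 14 genes, of which 9 were highest in tumor 2, against 33.7% of all genes. Hes1, the effector of active Notch, had 14.1, 89.8 and 12.2 TPM, and Dll3, a ligand that inhibits Notch, had 52.1, 79.3 and 17.5 TPM. Jag1, a ligand, had 60.2, 24.1 and 2.88 TPM and 58.4, 53.8 and 23.8 CPM at its start site.

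MHC class I genes, which present antigens to T cells, had RNA medians of -0.52, -0.51 and 1.12 and start-site medians of -0.16, -0.13 and 0.25, with 9 of 10 genes highest in tumor 3, against 40.9% of all genes. B2m, the light chain, had 149, 153 and 381 TPM, and Tap1, of the peptide transporter, had 1.76, 1.89 and 7.51 TPM with 16.9, 21.4 and 27.3 CPM at its start site. H2-K1, a heavy chain, was the exception, at 97.8, 32.7 and 85.0 TPM. Target genes of p53 had RNA medians of -0.23, -0.21 and 0.36, with 14 of 21 highest in tumor 3, against 40.9% of all genes. Eda2r, a receptor of the TNF family, had 4, 1 and 624 counts, with 0.757, 0.329 and 14.5 CPM at its start site. Ccng1, cyclin G1, had 33.1, 31.9 and 182 TPM with 26.6, 28.3 and 27.2 CPM, so its start site did not follow. Cdkn1a, a CDK inhibitor that p53 turns on, had 90.6, 41.3 and 72.7 TPM. Of the other CDK inhibitors, Cdkn2a, of INK4A and ARF, had 403, 305 and 342 TPM and its relative Cdkn2c had 281, 478 and 383 TPM. The list that holds them also holds the D cyclins and their kinases Cdk4 and Cdk6, and over 11 of its 12 genes the RNA medians were 0.05, -0.05 and -0.08. Under the other scalings these RNA medians kept their signs, as did those of the granule, synaptic, Notch and Hox genes, apart from granule genes in tumor 1 (0.01 with total counts).

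**Figure D4:**
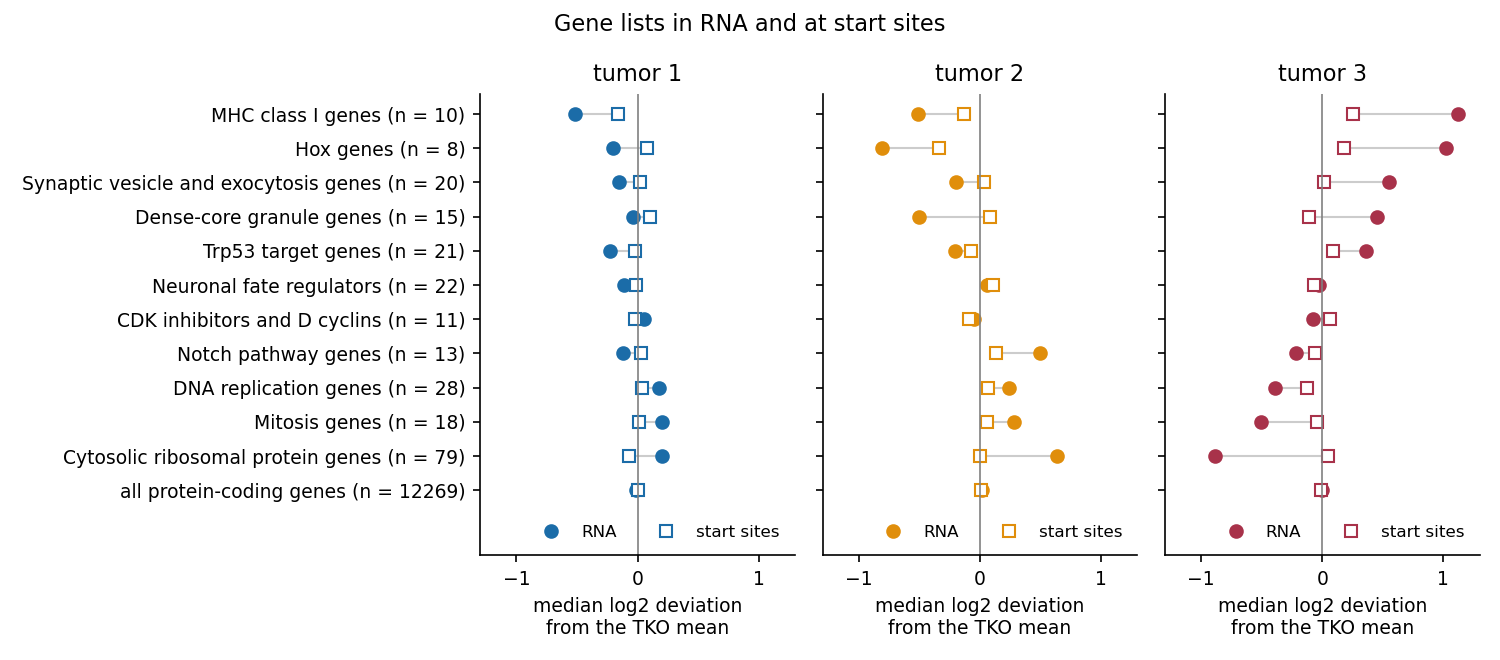
Median log2 deviation of each TKO tumor from the mean of the 3 tumors for 11 gene lists and all coding genes (rows, with the number of genes that have both values; the other lists are not drawn), in RNA (filled circles) and in accessibility at start sites (open squares). Ribosomal protein genes reach -0.89 and MHC class I genes 1.12 in the RNA of tumor 3, while start sites of the rows drawn stay between -0.34 and 0.25.

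Gene by gene, the deviation of a tumor in RNA went with its deviation at the start site. Across 12269 genes Pearson's r was 0.572 for tumor 1, 0.628 for tumor 2 and 0.624 for tumor 3. For libraries with different digits r was -0.512 to 0.0857. Deviations of 3 tumors sum to 0, which by construction makes values between different digits negative on average. Among the 970 genes with RNA at least 2-fold above the mean in tumor 3 the start site lay above its mean in 84.7%, and among the 800 genes at least 2-fold under it in 15.8%.

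Deviations also followed position in the genome. In bins of 5 Mb with at least 20 peaks and 10 genes, 419 in all, the median deviations in ATAC-seq and RNA-seq had r = 0.766, 0.786 and 0.828 for tumors 1, 2 and 3. Bins past 0.3 in the same direction in both assays were 7 higher and 2 lower in tumor 1, 18 higher and 9 lower in tumor 2, and 11 higher and 39 lower in tumor 3. The bin of Mycn, on chromosome 12 from 10000001 to 15000000, had the largest deviation of each tumor, at 1.91, 1.22 and -3.30 in ATAC-seq and 1.2, 1.33 and -3.38 in RNA-seq. Medians over whole chromosomes differed too, and single bins of a chromosome could differ from its median. Chromosome 19 stood at 0.32, 0.28 and -0.59 in ATAC-seq over 1478 peaks and at 0.24, 0.20 and -0.44 in RNA-seq over 444 genes, but its bin from 0 to 5 Mb stood at -0.03, -0.02 and 0.03 in ATAC-seq. Chromosome 6, with the Hoxa cluster, stood at 0.13, 0.37 and -0.49 in ATAC-seq, and chromosome 14, with Rb1, at 0.21, 0.19 and -0.37. On chromosome X the bin from 135 to 140 Mb ran the other way, with -0.21, -0.74 and 0.90 in ATAC-seq and -0.29, -0.68 and 1.10 in RNA-seq. The bin of Rbl1, on chromosome 2 from 155 to 160 Mb, stood at 0.51, -0.38 and -0.13 in ATAC-seq, so the high start site of Rbl1 in tumor 3 was not shared by its bin. With 107 bins that deviated in ATAC-seq left out, r across the remaining 9891 genes was 0.575, 0.611 and 0.612. Whether copy number, which was not measured, enters the values of these regions was not tested.

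**Figure D5:**
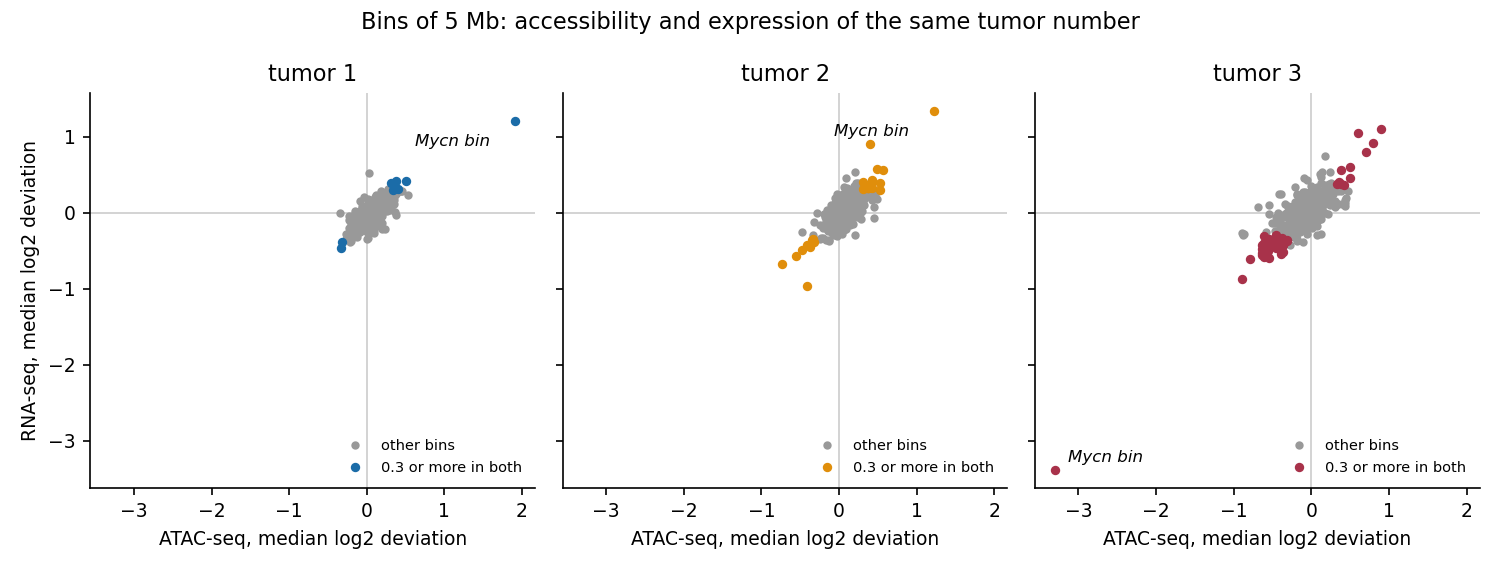
Median log2 deviation of each TKO tumor from the mean of the 3 tumors in 419 bins of 5 Mb, in ATAC-seq (horizontal) and RNA-seq (vertical), for libraries with the same digit. Colored points lie past 0.3 in both assays, and the bin of Mycn lies at -3.30 and -3.38 in tumor 3.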

How the data were processed

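The authors mapped RNA-seq reads by HISAT2 to mm10 and counted them with htseq-count, by the Methods on RefSeq transcripts, whereas the deposited table holds Ensembl gene IDs. They mapped ATAC-seq reads with Bowtie2, removed duplicates and called 1 set of peaks for all libraries. By the Methods, called peaks were filtered against regions of altered copy number. The deposited values of both assays are unnormalized counts. Of the per-sample columns, 6 were used and 12, of the 2 other genotypes, were not used here. The 5 summary entries of the RNA-seq table were left out of totals. Members and gene lists were chosen with earlier results of these data known.

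Libraries were scaled by TMM on the TKO libraries alone (edgeR 4.0.16 and, for an alternative, DESeq2 1.42.0, in R 4.3.3). TPM used the union of exons of the GRCm38 annotation, and log2 CPM a prior count of 2. Tables and figures were made in Python 3.11.15 with pandas 2.3.3, numba 0.67.0, numpy 2.4.6, matplotlib 3.10.9 and scipy 1.17.1. The code was tested on simulated data. There was no group to compare, so no test was run and every value is a description.

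Named genes and peaks were those of 25 gene lists, the 20 nuclear coding genes of highest TPM, the densest peaks, the genes and peaks furthest above both other tumors (at least 10 CPM), the genes with most RNA and no start-site peak or with an open start site and at most 3 counts, the bins of largest deviation, and the 5 genes of smallest and of largest SD (at least 50 CPM). Rankings of single-copy peaks and of nuclear genes, and the genes near Mycn, were added after the values were seen. Alternatives were other scalings, thresholds, windows, filters, bins and gene lengths, and leaving out each library.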

Additional observations from a re-analysis of the deposited data

How the results depend on the processing

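With 3 libraries per assay an SD is known only roughly, peaks were called on the series as a whole and not on TKO alone, and neither cell type shares nor copy number were measured. Ranks of peaks by reads rest on repeats, where reads can map to several places. At 3 counts the depth allows no value under 0.0706 to 0.163 CPM to be told from 0. Over 16 results, 84 alternatives were run: 45 stayed within the spread between tumors or, for counts, within 1.5 times the count given, and 39 moved, as follows; the causes were not tested. Alternatives with single-copy peaks, and leaving out libraries for the SD and the open start sites, were chosen after seeing the data.

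A level of 2 CPM left 30731 peaks present in all tumors. The mean share of ATAC counts in the 10 fullest peaks, 29.7%, became 18.3% with the densest peaks per kb and 7.55% with single-copy peaks. Without a filter the median SD of genes was 0.15. When each library was left out, the median SD was 0.22 to 0.41 for genes, 0.14 to 0.28 for start-site peaks and 0.33 to 0.68 for distal peaks, lowest without TKO replicate 3. Genes with 1 tumor at least 4-fold above both others, 658 in sum, became 1454 without a filter, 1780 at 2-fold and 357 at 8-fold. Peaks, 2926 in sum, became 1641 at a level raised to 6 CPM, 9781 at 2-fold and 821 at 8-fold.

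The rank correlation of 0.783 was 0.779 with a window of 2000 bp, 0.77 with the 5′ most start, 0.767 with CPM per kb, 0.443 with open start sites, 0.734 with all biotypes, 0.797 with CPM in place of TPM and 0.757 with single-copy peaks. Open start sites of detected and undetected genes were 97.6 and 20.8% at 0.5 CPM, 96.1 and 12.2% at 2 CPM, 96.8 and 15.3% with a window of 500 bp, 97.6 and 19.4% with 2000 bp, 92.4 and 14.3% with single-copy peaks, and 97.2 to 97.3% and 17.2 to 17.9% when each library was left out. The mean correlation of deviations, 0.608, was -0.28 between libraries with different numbers. Deviating bins, 86 in sum over tumors, were 42 at 10 Mb. Of the densest distal peaks 14.6% held CAGCTG and 2.3% TGANTCA, and of single-copy ones 21.8 and 6.0%.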

Other observations

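Chromosome Y, with 41 peaks and 2 genes at a mean of at least 1 CPM, stood at 0.61, 0.79 and -1.36 (median log2 deviation of tumors 1, 2 and 3 from their mean) in ATAC-seq and at 0.48, 0.58 and -1.06 in RNA-seq. On chromosome 8 the bin from 80 to 85 Mb stood at -0.27, 0.49 and -0.18 in ATAC-seq and at -0.28, 0.58 and -0.35 in RNA-seq, while Nfix, a gene in it, was highest in tumor 3. Among cell cycle genes, Ccnd1, which encodes cyclin D1, had 9.97, 2.91 and 0.89 TPM, and Cdk6, a partner of D cyclins, had 0.344, 0.399 and 2.68 TPM with 29.8, 31.9 and 45.7 CPM at its start site, while Cdk4, the other partner, had 662, 598.5 and 504 TPM with 41.8, 40.7 and 52.9 CPM. Rest, which silences neuronal genes outside neurons, had 2.42, 3.59 and 3.35 TPM and 9.96, 9.67 and 19.5 CPM.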
